A study of Mus musculus with 6 samples.

Results

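The genes described here are 10 genes of the liver X receptor (LXR) pathway and of cholesterol export: the receptors Nr1h2 and Nr1h3, the transporters Abca1 and Abcg1, the secreted lipid carriers Apoe, Apoc2 and Pltp, the membrane and receptor regulators Mylip and Lpcat3, and the oxysterol enzyme Ch25h. They were taken by symbol from a table of 17904 genes, and all 10 were found and reached 1 FPKM (fragments per kilobase of transcript, normalised to library depth) in at least 1 library. RNA came from bone marrow-derived macrophages of C57BL/6 mice aged 8 weeks, grown for 5 days with M-CSF, a macrophage growth factor. Their genotype was WT or Setd2-KO (labelled KO below), Setd2 being a histone methyltransferase that marks the bodies of transcribed genes. They were taken untreated (0 h) or 12 or 24 h after adding 100 ng/ml of LPS, the endotoxin that macrophages sense through Toll-like receptor signalling. The labels do not describe the Setd2 allele, the means of its deletion, or whether libraries share an animal. With 1 library in each of the 6 groups there is no replicate error or replicate check behind any value, and no p-value is given.

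LXRα (encoded by Nr1h3) and LXRβ (Nr1h2) are nuclear receptors that bind oxysterols, the oxidised forms of cholesterol, and act on DNA together with the retinoid X receptors. In macrophages loaded with cholesterol they are known to turn on genes that move it out of the cell: ABCA1 hands cholesterol and phospholipid to lipid-poor apolipoprotein A1, ABCG1 adds it to formed lipoprotein particles, and apolipoprotein E is a particle component that macrophages secrete. The pathway is also known to limit cholesterol entry, and to be in exchange with Toll-like receptor signalling.

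Abca1 and Ch25h had the widest ranges of level over the 6 libraries, 26.0-fold and 76.5-fold from lowest to highest, and their upstream sequences are shown for that reason. RefSeq promoter windows of GRCm38.p6 were matched for 9 of the 10 genes by symbol. No window was matched for Abcg1, so its promoter was not searched. The sequences below are the 250 bases before the start used in the RefSeq promoter table, 5′ to 3′ on the strand of the gene, and positions are counted from that start. For Abca1 they lie at chr4:53159896-53160145 on the minus strand, and for Ch25h at chr19:34475149-34475398, also on the minus strand. The RefSeq span of Abca1 reaches further upstream than this start, so the last 93 bases of its window, which hold the marked match, lie inside that span.
Abca1: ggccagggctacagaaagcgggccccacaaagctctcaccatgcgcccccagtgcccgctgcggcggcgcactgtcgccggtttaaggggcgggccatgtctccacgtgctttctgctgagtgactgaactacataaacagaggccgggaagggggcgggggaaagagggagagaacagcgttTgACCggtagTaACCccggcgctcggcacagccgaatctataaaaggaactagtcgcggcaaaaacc
Ch25h: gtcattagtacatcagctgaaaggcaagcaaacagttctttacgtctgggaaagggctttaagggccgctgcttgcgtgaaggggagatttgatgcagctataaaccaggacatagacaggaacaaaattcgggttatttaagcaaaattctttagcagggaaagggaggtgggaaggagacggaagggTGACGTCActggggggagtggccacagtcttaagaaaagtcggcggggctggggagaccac
In the Abca1 sequence the capitals mark the fixed letters of a direct repeat of the kind LXR binds, GGTNA followed by any 5 bases and GGTNA again, found on the opposite strand from 67 to 53 bases before the start. This motif was present in 0.621% of 32851 windows of the same length, counting both strands, and among the 9 matched genes it was found for Abca1 alone. In the Ch25h sequence the capitals mark TGACGTCA, the palindromic element bound by CREB and ATF factors, from 61 to 54 bases before the start, which 1.55% of windows held. The Abca1 window also held the palindrome CACGTG, the E-box, which 6.02% of windows held. The interferon element core, GAAA and GAAA with any 2 bases between, and the AP-1 motif TGANTCA were searched on both strands and matched in none of the 9 genes, against 2.98% and 6.75% of all windows. The motifs were chosen after the promoters had been read, so the shares are no test of a match. A match describes these letters only, and no binding was measured.

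Depth was estimated from the spacing of low FPKM values at 21990000 to 22650000 mapped reads per library, with reads of 50 nt assumed. Setd2 stood at 7.83, 8.68 and 7.51 FPKM at 0, 12 and 24 h in the WT libraries and at 9.96, 9.16 and 5.11 in the libraries labelled KO, so its level does not separate the labels, and each direction given here rests on the labels alone. All 8 macrophage markers reached 1 FPKM; their summed level was 7949 to 13507 FPKM in WT and 2424 to 3697 in the libraries labelled KO, of which Lyz2 alone was 3903 to 9015 in WT and 17.7 to 54.5 in the libraries labelled KO. The other 7 macrophage markers summed to 2454 to 4492 FPKM in WT and 2406 to 3643 in the libraries labelled KO, and in order of time 5, 2 and 3 of these 7 were higher in the library labelled KO. The 6 neutrophil markers summed to 76.8 to 84.0 FPKM in WT and 38.4 to 65.8 in the libraries labelled KO, with S100a8 the highest at 62 FPKM. The part of these lists in the differences below was not tested. Endothelial markers summed to at most 29.6 FPKM, of which Kdr was 19.7, and stromal markers to at most 11.9. Markers of dendritic cells, T cells, B cells, NK cells, mast cells and red cells summed to at most 2.73 FPKM in any library, and the 1 adipocyte marker in the table to 0.02; none was at 0 in all 6. In bulk RNA, fewer cells of a kind and less RNA per cell cannot be told apart. Differences between libraries also followed transcript length: at 0 h the library labelled KO was lower than WT for genes of up to 1024 nt (median difference -0.55 on the log2 scale) and higher for those over 8192 nt (0.59), while at 24 h these medians were 0.18 and -0.44. Values with this trend removed are therefore given beside the results they touch. For the neutrophil markers S100a8 and S100a9, the KO against WT differences at 0 h were -0.79 and -0.80. With the trend removed they were -0.10 and -0.13 at 0 h, -1.03 and -0.83 at 12 h, and -0.45 and -0.76 at 24 h.

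Differences are of log2(FPKM + 1), which understates changes of low genes, and a gene was called at a size of 1, a 2-fold change, or more. Of the 10 genes, 3 were called between the genotypes at 0 h, 0 at 12 h and 5 at 24 h, where 4.23%, 2.04% and 4.15% of all measured genes were called. At 0 h the library labelled KO had 1 gene higher (Ch25h; 2.96% of measured genes) and 2 lower (Apoe and Apoc2; 1.26%). At 12 h 0 were higher (1.32%) and 0 lower (0.727%). At 24 h 1 was higher (Ch25h; 2.22%) and 4 lower (Abca1, Apoc2, Mylip and Pltp; 1.93%). With the length trend removed, the 5 calls at 24 h remained, with values from -1.44 to -1.13 for the 4 lower genes, and at 0 h only Ch25h was called. The 10 genes had median differences of -0.27, -0.59 and -0.37 at the 3 times, beside 0.02, -0.06 and -0.12 over all measured genes.

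**Figure D1:**
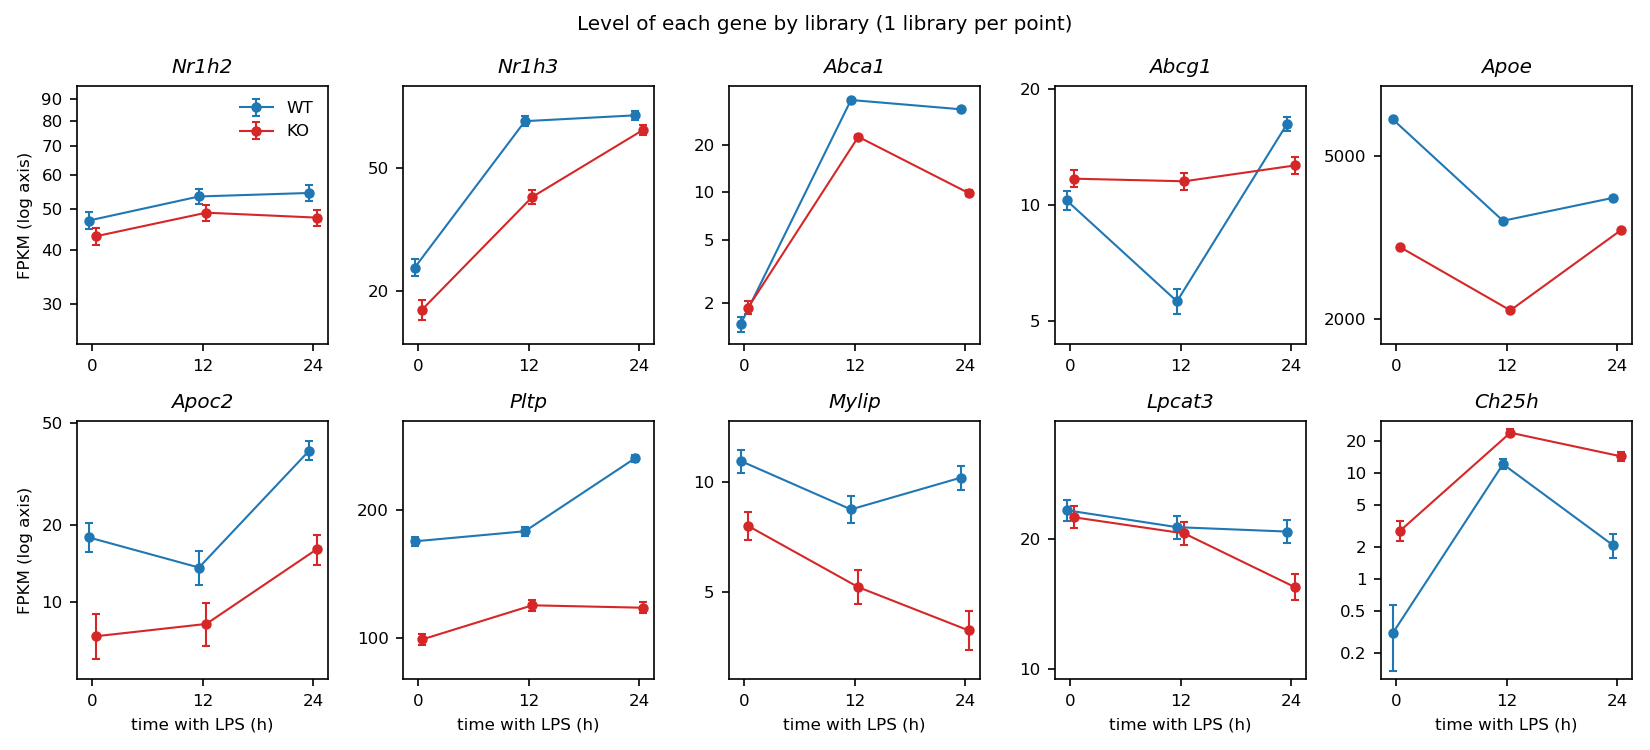
Level of each of the 10 genes in FPKM (vertical, log axis) against hours with LPS (horizontal) in WT (blue) and in the libraries labelled KO (red). Each point is 1 library, and bars are 95% Poisson intervals from estimated reads, which cover counting error only; Ch25h is the only gene with the red points above the blue at all 3 times.

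Without regard to size, 7 of the 10 genes were lower in the library labelled KO at all 3 times (Nr1h2, Nr1h3, Apoe, Apoc2, Pltp, Mylip and Lpcat3), as were 19.8% of measured genes, and 1 (Ch25h) was higher at all 3, as were 11.3%. Abca1 joined the lower group when the length trend was removed (8 of 10, against 24.8% of genes), since its small 0 h difference changed from 0.22 to -0.17. Lpcat3 left it under median-of-ratios scaling, which moved its 12 h difference from -0.05 to 0.04. As deposited, all 3 values labelled KO lay below all 3 WT values for 3 members (Apoe, Pltp and Mylip), as for 0.987% of measured genes, and above them for 0 members, as for 1% of genes. By the 2-fold rule 0 members were lower at all 3 times and 0 were higher, as were 0.026% and 0.139% of measured genes. The 3 comparisons use different libraries.

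**Figure D2:**
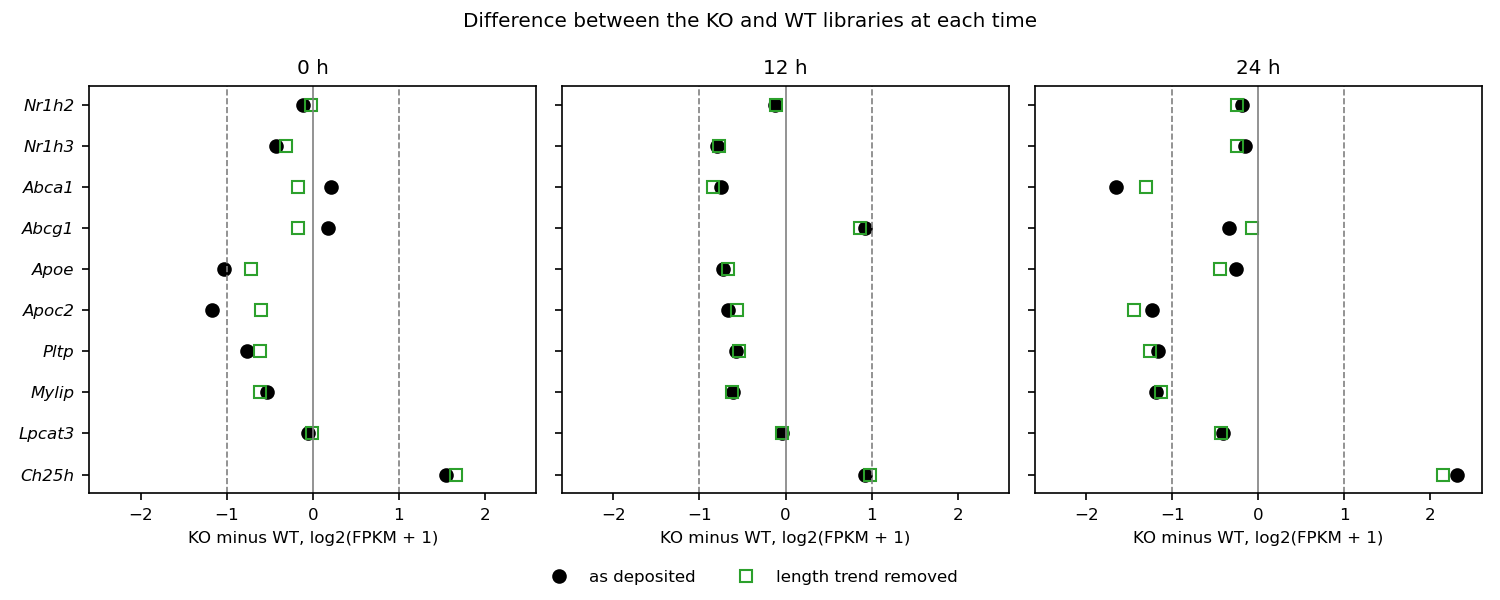
Difference between the library labelled KO and the WT library in log2(FPKM + 1) (horizontal) for each gene at 0, 12 and 24 h, as deposited (filled circles) and with the length trend removed (open squares); dashed lines mark the 2-fold rule. Most genes lie left of 0 at every time, Ch25h lies to the right, and the short genes Apoe and Apoc2 move inside the lines at 0 h when the trend is removed.

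The 2 receptors behaved differently over time. Nr1h2 (chromosome 7, 44549616 to 44553968) was nearly level, at 47.0, 53.4 and 54.5 FPKM in WT and 43.2, 49.0 and 47.7 in the libraries labelled KO at 0, 12 and 24 h, a range of 1.26-fold over the 6 libraries. Nr1h3 (chromosome 2, 91184061 to 91202829) was at 23.8, 70.7 and 73.8 FPKM in WT and at 17.4, 40.3 and 66.1 in the libraries labelled KO. The LXRα gene thus rose past the 2-fold rule in both genotypes, by 1.53 at 12 h in WT and by 1.16 in the libraries labelled KO. WT was at its later level by 12 h (24 h against 12 h, 0.06), whereas the libraries labelled KO added a further 0.70 between 12 and 24 h, short of a call. The gap between genotypes was -0.43 at 0 h, -0.80 at 12 h and -0.16 at 24 h, none of them called. At 12 h only 1.49% of measured genes had a lower difference than Nr1h3. The ratio of Nr1h3 to Nr1h2 went from 0.507 to 1.32 and 1.36 in WT and from 0.403 to 0.822 and 1.38 in the libraries labelled KO.

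Of the 10 genes, the cholesterol exporter Abca1 had the largest LPS response in WT on the log2(FPKM + 1) scale and the lowest KO against WT difference at 24 h. With the length trend removed, Ch25h had 3.48 and Abca1 3.47 at 12 h in WT, while at 24 h Abca1 still had the largest response (3.66). The rank by KO against WT difference at 24 h did not hold, since Apoc2 then had the lowest value. Abca1 (chromosome 4, 53030789 to 53159988; 10262 nt) stood at 1.47, 38.2 and 33.4 FPKM in WT. In the libraries labelled KO it stood at 1.87, 22.4 and 9.88 FPKM. The resting libraries were both low and close to each other, and the genotypes parted after LPS, with WT 1.71-fold higher at 12 h and 3.38-fold higher at 24 h. The rise from 0 h to 12 h was 3.99 in WT and 3.03 in the libraries labelled KO. By 24 h it was 3.80 and 1.92. The KO minus WT difference was -0.75 at 12 h and -1.66 at 24 h (-1.31 with the length trend removed), and 0.208% of measured genes had a lower value at 24 h.

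Abca1 has the longest transcript of the 10, so part of its late pattern moved with the length trend. Genes over 8192 nt had a median of -0.81 between 24 h and 12 h in the libraries labelled KO, where Abca1 fell by 1.10; with the trend removed its value was -0.28, and with a pseudocount of 5 it was -0.88, neither of them called. In WT the same step was -0.19 as deposited and 0.19 with the trend removed. The difference of the LPS responses at 24 h, KO minus WT, was -1.88 for Abca1, where genes over 8192 nt had a median of -1.08 and 12.7% of all measured genes were called. With the trend removed it was -1.13, still called.

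Abcg1 (chromosome 17, 31057694 to 31117984), the transporter to formed lipoproteins, did not follow Abca1. In WT it was at 10.3, 5.62 and 16.3 FPKM in order of time, a dip and a return. In the libraries labelled KO it stayed between 11.5 and 12.7 FPKM at all 3 times. Against 0 h the WT dip was -0.77, short of a call, and -1.14 with the length trend removed, a call. WT rose by 1.38 from 12 to 24 h, a call, where the libraries labelled KO had 0.13. At 12 h Abcg1 was 2.05-fold higher in the library labelled KO, 0.92 on the log2(FPKM + 1) scale and short of a call. It was called with a pseudocount of 0.1 (1.02) and with median-of-ratios scaling. Only the WT library at 12 h stands apart from the other 5 on the low side, so the difference rests on that 1 library, which has no replicate. The ratio of Abca1 to Abcg1 was 0.143, 6.80 and 2.05 at 0, 12 and 24 h in WT and 0.160, 1.94 and 0.780 in the libraries labelled KO.

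**Figure D3:**
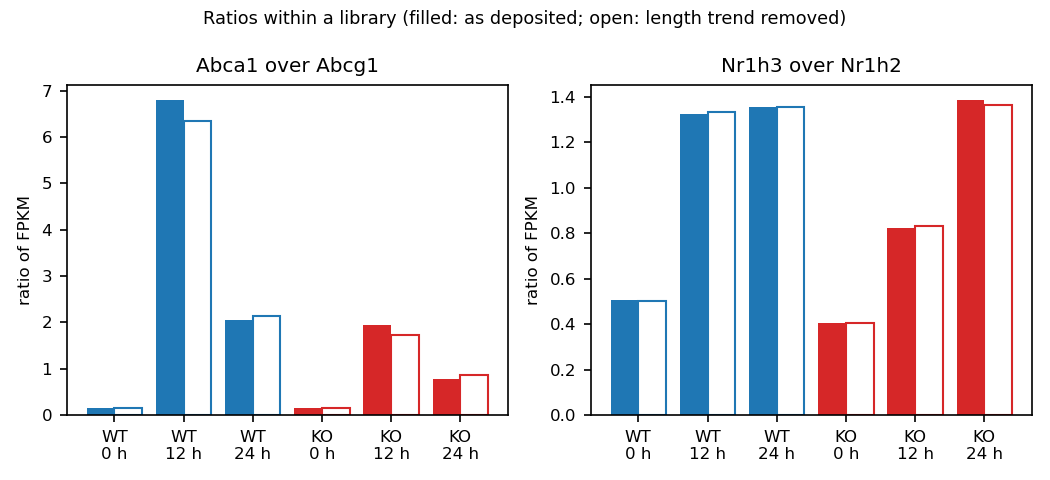
Ratio of FPKM within each library (vertical, from 0) for Abca1 over Abcg1 and for Nr1h3 over Nr1h2, with WT in blue and the libraries labelled KO in red; filled bars are as deposited and open bars have the length trend removed. The Abca1 to Abcg1 ratio peaks at 12 h in both genotypes, at 6.80 in WT and 1.94 in the library labelled KO, and the receptor ratio reaches 1.36 and 1.38 at 24 h.

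The secreted carriers were lower in every library labelled KO than in the WT library of the same time. Apoe (chromosome 7, 19696244 to 19701310) was the most abundant of the 10 by far, at 6136, 3469 and 3947 FPKM at 0, 12 and 24 h in WT and 2991, 2097 and 3286 in the libraries labelled KO. The genotype gap narrowed over time, from -1.04 at 0 h to -0.73 at 12 h and -0.26 at 24 h. With the length trend removed it was -0.72, -0.67 and -0.44, without a call at any time. Under LPS, Apoe in WT differed from 0 h by -0.82 at 12 h and -0.64 at 24 h, and in the libraries labelled KO by -0.51 and 0.14, none of them called.

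Apoc2, whose product activates lipoprotein lipase, lies near Apoe (chromosome 7, 19671579 to 19677941) and had a different course. It was at 17.9, 13.6 and 39.0 FPKM in WT and at 7.36, 8.22 and 16.1 in the libraries labelled KO, on an estimated 99 to 523 reads. Every library labelled KO was below the WT library of its time, with differences of -1.18, -0.67 and -1.23. With the trend removed the values were -0.61, -0.57 and -1.44, and with a pseudocount of 5 the 0 h value was -0.89. Apoc2 rose between 0 and 24 h by 1.08 in WT and by 1.03 in the libraries labelled KO; a pseudocount of 5 gave 0.94 and 0.77, and removing the trend left 0.54 in the latter. Between 12 and 24 h the WT step was 1.45. GENCODE M21 also annotates a transcript model, Gm44805, that shares 646 exonic bases with Apoc2 on the same strand, so how reads were assigned there is uncertain. Of the neighbouring genes, Apoc1 stayed at 0.54 FPKM or less and Apoc4 at 0.10 or less in all libraries, and Clptm1 stayed between 57.5 and 64.1.

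Pltp (chromosome 2, 164839518 to 164857708), which encodes the phospholipid transfer protein, was at 168, 178 and 264 FPKM in WT and at 99.1, 119 and 118 in the libraries labelled KO. The 2 sets of libraries did not overlap, with the highest value labelled KO below the lowest WT value. The differences were -0.76, -0.57 and -1.16 in order of time, the last called and -1.26 with the trend removed. In WT the level at 24 h was 0.65 above 0 h, where the libraries labelled KO had 0.25. Pltp shares 495 of its 2354 exonic bases with Ctsa on the opposite strand, and whether the libraries keep strand is not given in the sources used here. Ctsa was at 522, 334 and 368 FPKM in WT and at 454, 331 and 401 in the libraries labelled KO, so its levels do not follow those of Pltp.

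Mylip (chromosome 13, 45389742 to 45411940), a ubiquitin ligase that limits lipoprotein uptake, showed a gap that widened with time. It was at 11.4, 8.43 and 10.3 FPKM in WT and at 7.60, 5.17 and 3.94 in the libraries labelled KO. All WT values lay above all values labelled KO. The differences were -0.53, -0.61 and -1.19, and the last was called, though with a pseudocount of 5 it was -0.78.

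Lpcat3 (chromosome 6, 124663094 to 124704716), which puts polyunsaturated fatty acids into phospholipids, changed least after Nr1h2. It was at 23.4, 21.4 and 20.9 FPKM in WT and at 22.5, 20.7 and 15.5 in the libraries labelled KO. The first 5 of these 6 values lay between 20.7 and 23.4 and the library labelled KO at 24 h was the lowest, with a difference of -0.41 from WT that was not called.

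Ch25h (chromosome 19, 34473783 to 34475148) makes an oxysterol from cholesterol and was the only member higher in the library labelled KO at every time. It was at 0.31, 12.0 and 2.07 FPKM in WT, a peak at 12 h and a fall by 24 h. In the libraries labelled KO it was at 2.84, 23.7 and 14.3 FPKM. The difference was 1.55 at 0 h, 0.93 at 12 h and 2.31 at 24 h, and at 24 h 99.8% of measured genes had a lower one. The WT value at 0 h rests on about 9 reads by the depth estimate, a 95% Poisson interval of 0.138 to 0.572 FPKM that covers counting error only, below the interval of 2.27 to 3.51 in the library labelled KO. At such levels the size depends on the pseudocount, and with 5 in place of 1 the 0 h difference was 0.56, not called. Between 12 and 24 h Ch25h fell by 2.08 in WT, where the libraries labelled KO had -0.70, which became -1.06 and a call with the length trend removed.

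Against 0 h, LPS raised the same 3 genes past the 2-fold rule at 12 h in both genotypes: Abca1, Ch25h and Nr1h3. In WT 27% of measured genes were called at that time, 9.64% higher and 17.4% lower; in the libraries labelled KO 26.1% were, 8.63% higher and 17.5% lower. At 24 h these 3 and Apoc2 were called higher in both genotypes. The background at 24 h was 21.5% in WT (7.65% higher, 13.9% lower) and 29.1% in the libraries labelled KO (7.55% higher, 21.6% lower). No member was called lower against 0 h at either time, and in each genotype both responses are set against a single 0 h library. Between 12 and 24 h, 3 members were called in WT, Apoc2 and Abcg1 higher and Ch25h lower, where 5.61% of genes were called (1.82% higher, 3.79% lower). In the libraries labelled KO 1 was called, Abca1 lower, where 12.5% of genes were called (4.78% higher, 7.67% lower). The difference of the LPS responses was called for 0 members at 12 h, where 4.79% of genes were called (1.65% higher, 3.14% lower). At 24 h it was called for Abca1 alone, where 12.7% of genes were called (4.04% higher, 8.63% lower). All measured genes had median differences from 0 h of -0.28 and -0.25 in WT and -0.36 and -0.39 in the libraries labelled KO, which median-of-ratios scaling brought to between -0.01 and 0.01. Under that scaling the small LPS differences of Lpcat3 at 12 h in both genotypes and at 24 h in WT, of Mylip in WT at 24 h (from -0.14 to 0.15) and of Abcg1 at 12 h in the libraries labelled KO (from -0.02 to 0.37) changed sign.

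**Figure D4:**
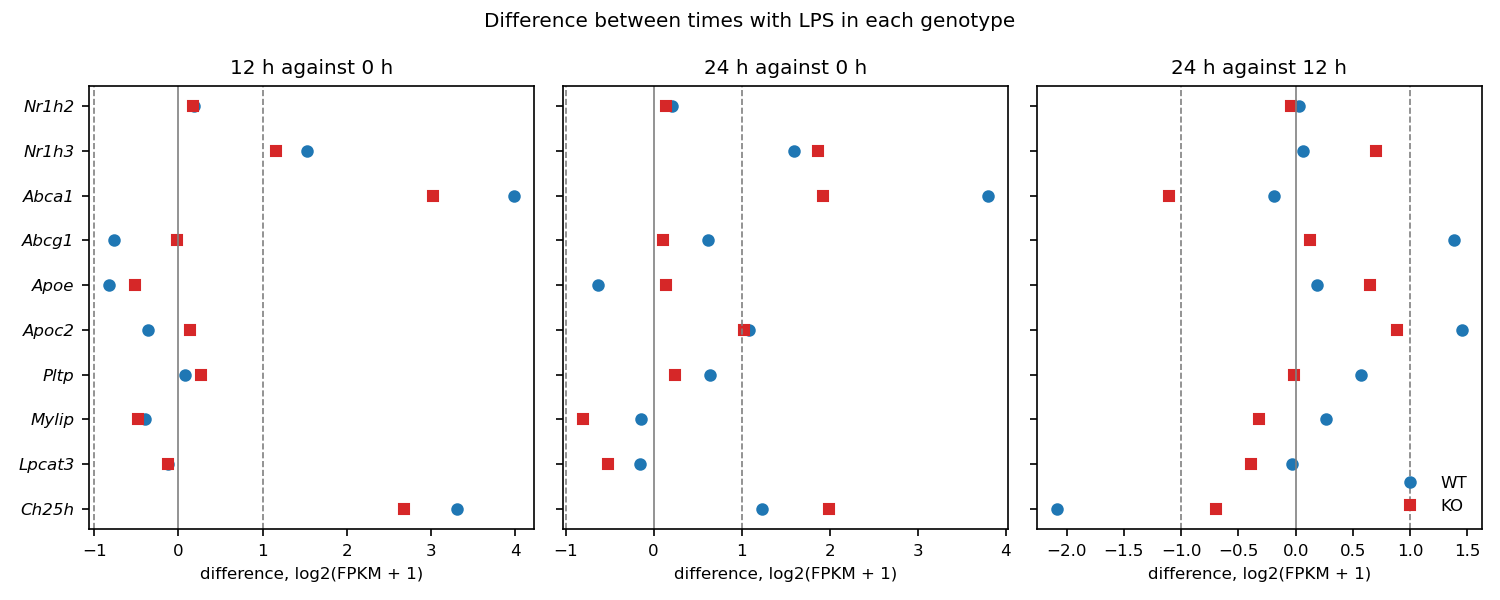
Difference in log2(FPKM + 1) between times with LPS (horizontal) for each gene in WT (blue circles) and in the libraries labelled KO (red squares), with dashed lines at the 2-fold rule. Abca1, Ch25h and Nr1h3 lie beyond the right line in both genotypes at 12 and 24 h, and the genotypes lie farthest apart for Abca1 at 24 h against 0 h (3.80 and 1.92).

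Other genes named as LXR targets were set beside these 10, from a list of 22 of which 14 were measured. At 0 h 0 of the 14 were called, where 4.23% of measured genes were, with a median of 0.18. At 12 h Lpl, which encodes lipoprotein lipase, was higher (1.16) and the desaturase gene Scd2 lower (-1.11), with a median of -0.25. Over all measured genes 1.32% were called higher and 0.727% lower at 12 h. The 24 h median was -0.72, with 1 gene called higher and 4 lower, where 2.22% and 1.93% of measured genes were. The median with the length trend removed was -0.48. The lower genes were Scd2 (-2.43), fatty acid synthase Fasn (-1.37), Vegfa (-1.14) and Mertk, a receptor for dying cells (-1.01, and not called with the trend removed). Lpl was again higher (1.97), and its WT level went from 524 FPKM at 0 h to 49.9 at 24 h, where the libraries labelled KO went from 622 to 198. Srebf1, the lipid synthesis regulator that LXR is known to induce, was at -0.71 at 24 h, short of a call; it is named for that role, outside the naming rule.

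Of 14 measured retinoid X receptors, corepressors, coactivators and related receptors, 1 was called at 0 h (Tbl1x, 1.15, not called with the trend removed), 0 at 12 h and 0 at 24 h, with medians of 0.17, 0.02 and -0.31. Over all measured genes 4.23%, 2.04% and 4.15% were called at 0, 12 and 24 h. For the difference of LPS responses at 24 h, 4 of the 14 were called lower, where 8.63% of measured genes were. The median of the 14 was -0.54. With the length trend removed, 2 of the 14 were called lower and their median was -0.29. By that setting 6.73% of measured genes were called in either direction. Rxra, a dimer partner, was at 20.7, 19.9 and 18.8 FPKM in WT and at 21.8, 11.8 and 13.7 in the libraries labelled KO. Its differences were 0.07, -0.71 and -0.43. Rxrb, another dimer partner, was at 32.7, 15.6 and 26.9 FPKM in WT. In the libraries labelled KO it was at 21.9, 14.6 and 17.8, with differences of -0.55, -0.08 and -0.57. Pparg, a lipid-sensing receptor, fell with LPS in both genotypes, by 3.44 at 12 h in WT and by 3.04 in the libraries labelled KO.

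Genes of cholesterol synthesis and uptake that answer to SREBP2, a transcription factor activated when sterol is low, had KO against WT differences below 0 at 24 h in 15 of 15 measured cases, as did 61.4% of all measured genes. Of the 15, 5 were called lower, as were 1.93% of measured genes, and 10 were not. The median of the 15 was -0.91 (-0.80 with the trend removed, also 5 called). Among the called genes were Idi1 (-1.26), Cyp51 (-1.17), Dhcr7 (-1.17) and Fdps (-1.01), which encode enzymes of the synthesis pathway. At 0 and 12 h 0 of the 15 were called, with medians of -0.12 and -0.28. Of the 7 measured lipoprotein receptors, 0 were called at 12 or 24 h, and the scavenger receptor gene Msr1 was called higher at 0 h (1.04) among the 6 that had a value. Scarb1, a receptor for high-density lipoprotein, was at -0.91 at 24 h. Of 11 genes of lysosomal cholesterol, its storage and its transport, Gramd1b was called higher at 0 h (1.06, not with the trend removed). Stard4 was called lower at 24 h (-1.53). Over all measured genes 4.23%, 2.04% and 4.15% were called at 0, 12 and 24 h. Of the other 5 measured oxysterol genes beside Ch25h, none was called at any time; Cyp27a1, another oxysterol-forming enzyme, had -0.79 at 0 h and -0.83 at 24 h.

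**Figure D5:**
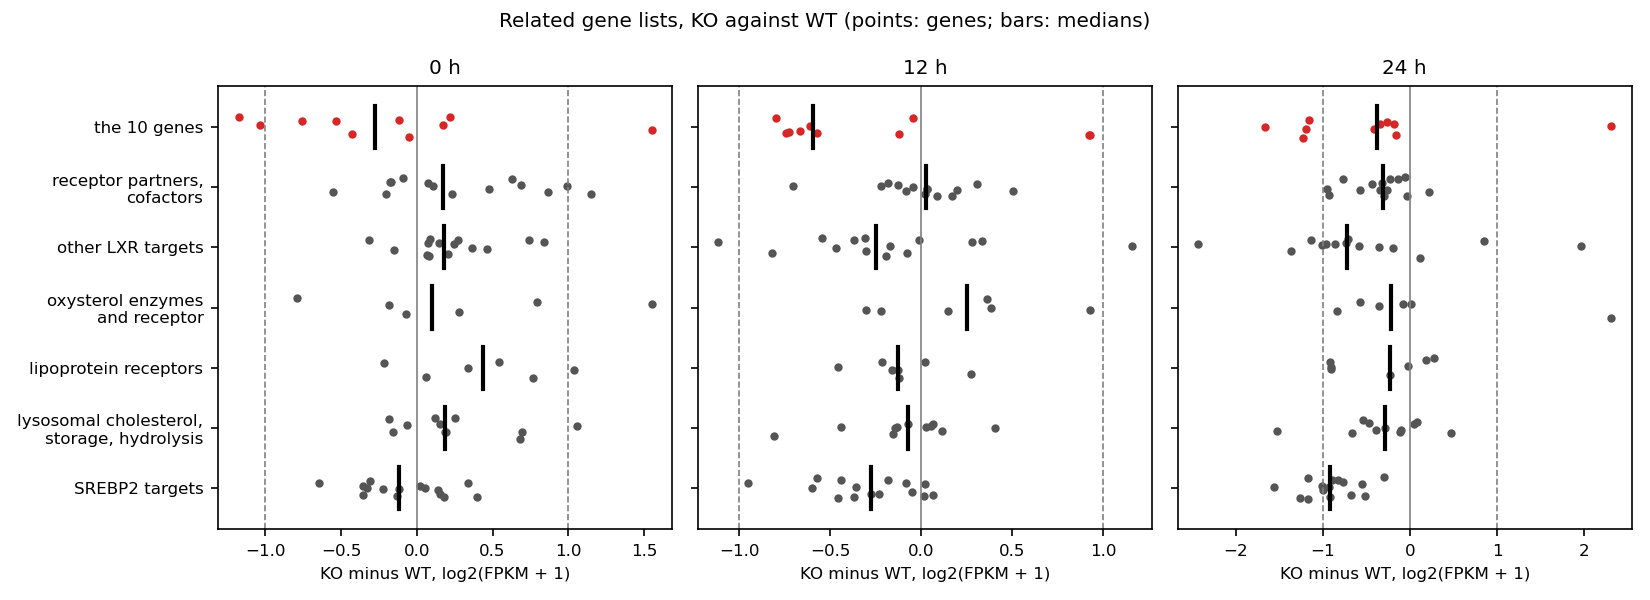
Difference between the library labelled KO and the WT library in log2(FPKM + 1) (horizontal) for the 10 genes (red) and 6 related lists (grey) at 0, 12 and 24 h; each point is a gene, black bars are medians and dashed lines mark the 2-fold rule. At 24 h the medians of the SREBP2 targets (-0.91) and of the other LXR targets (-0.72) lie lowest, and Ch25h, counted also among the oxysterol genes, lies farthest right in both of its rows.

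The genes with profiles nearest to 3 of the members were found by the Euclidean distance between log2(FPKM + 1) profiles over the 6 libraries, each centred on its mean, among 8845 candidates that reached 5 FPKM. For Abca1 they were the ubiquitin ligase gene Marchf1 (distance 0.81), Cp, which encodes ceruloplasmin (0.89), and Irak3, an inhibitor of Toll-like receptor signalling (0.99). Irak3 was at 7.05, 80.4 and 76.9 FPKM in WT and at 8.81, 67.2 and 51.7 in the libraries labelled KO. For Ch25h they were the chemokine genes Ccl3 (0.60) and Ccl4 (0.67) and Pdpn, which encodes podoplanin (0.99). For Apoe they were C1qb, a complement subunit gene, and the ribosomal protein genes Rps27 and Rps9, with distances of 0.31 to 0.34. No member was among the 300 nearest of any of these 3; the closest was Nr1h3 to Abca1, at rank 333. With 6 libraries of 6 conditions, such distances describe the profiles only. They used the values as deposited and were not computed with the length trend removed.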

How the data were processed

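RNA sequencing of mouse bone marrow-derived macrophages gave 6 libraries, 1 for each of 2 genotypes and 3 times. The authors deposited FPKM values with 2 decimals, per the file headers; Bowtie2, RSEM and GRCm38 are named in the submitters' processing notes, and versions, settings, strand and read length are not given in the sources used here. Of 17905 rows, 1 names no gene; 25 date-like symbols were replaced by gene ID, and 2 cells that are not numbers (Cd36 and Cers5, labelled KO, 0 h) were read as missing.

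Groups came from sample titles. A gene was measured at 1 FPKM in at least 1 library (11549 genes). Differences of log2(FPKM + 1) were called at a size of 1 or more. Alternatives were pseudocounts of 0.1 and 5, no minimum or 5 FPKM, rules of 1.5-fold and 3-fold, median-of-ratios and trimmed-mean scaling, and removal of the length trend: a lowess curve (span 0.3) over log transcript length, fitted per library on genes averaging 10 FPKM or more, lengths from GENCODE M21 for 99.0% of measured genes. Scripts (Python 3.11.15, statsmodels 0.14.6) were tested on simulated data. Reads per gene were estimated from depth and length, and Poisson intervals at 95% cover counting error only. All 10 genes were named; from other lists, the called genes and up to 3 with the largest difference; and the 3 nearest profiles of Abca1, Apoe and Ch25h. Members, lists and alternatives were chosen with earlier results of these data known, and the motifs after the promoters had been read. Gene coordinates are RefSeq's on GRCm38.p6. Values of some listed genes are not reported here.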

Additional observations from a re-analysis of the deposited data

Results flagged for a closer look

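Some members differed in direction between the genotypes or between the times. With 1 library per group, none of these differences was tested. Under LPS, Apoe at 24 h against 0 h was at -0.64 in WT and 0.14 in the libraries labelled KO, a difference of 0.77 (0.28 with the length trend removed). Apoc2 at 12 h against 0 h was at -0.37 and 0.14, a difference of 0.51 (0.038 with the length trend removed). Between 12 and 24 h, Pltp was at 0.57 in WT and -0.02 in the libraries labelled KO (difference -0.59), Mylip at 0.26 and -0.32 (-0.58), and Nr1h2 at 0.03 and -0.04 (-0.064). The KO against WT difference of Abca1 was 0.22 at 0 h and negative later, a change of -0.96 by 12 h and of -1.88 by 24 h. That of Abcg1 was 0.17 at 0 h, 0.92 at 12 h and -0.34 at 24 h, a change of -0.51 from 0 h and of -1.26 from 12 h to 24 h. With the length trend removed the change of Abcg1 from 0 h to 24 h turned direction, to 0.089.
Some of these opposite signs rest on small values that change sign with the processing. With the length trend removed, Apoe in the libraries labelled KO was at -0.18, Apoc2 in WT at 0.30, and the 0 h differences of Abca1 and Abcg1 at -0.17 and -0.17. With median-of-ratios scaling, Pltp and Nr1h2 in the libraries labelled KO were at 0.034 and 0.015 between 12 and 24 h.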

How the results depend on the processing

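No paired analysis was possible because the groups compared share a single replicate number; pairing the genotypes within times would treat 3 different times as replicates, and was not used as a test. As deposited, 27 differences of single members were called over the 11 comparisons; none changed sign under any alternative run. Both scalings kept all 27, removing the length trend kept 23, a pseudocount of 5 kept 20 and the 3-fold rule 13. The alternative minimums could not change these calls, since every member reached at least 11.4 FPKM in some library. Counts of members called moved by over 1.5 times as follows. For KO against WT, the 0 h count of 3 became 1 with a pseudocount of 5 or the trend removed and 0 with the 3-fold rule. The 12 h count of 0 became 1 with a pseudocount of 0.1, 2 with median-of-ratios scaling and 7 with the 1.5-fold rule, which called 8.02% of all genes. The 24 h count of 5 became 2 with the 3-fold rule. In WT, 12 h against 0 h went from 3 to 5 with the 1.5-fold rule (49.9% of all genes), 24 h against 0 h from 4 to 7 with that rule (40.8%) and to 2 with a pseudocount of 5 or the 3-fold rule, and 24 h against 12 h from 3 to 1 with the 3-fold rule. In the libraries labelled KO, 24 h against 12 h went from 1 to 5 with the 1.5-fold rule (34% of all genes) and to 0 with a pseudocount of 5 or the 3-fold rule. For the difference of responses, the 12 h count of 0 became 2 with a pseudocount of 0.1, 3 with the 1.5-fold rule (19.3% of all genes) and 1 with the trend removed; the 24 h count of 1 became 4 with the 1.5-fold rule (37.1%) and 2 with either scaling. Apart from the fold rules, whose construction sets the count, the cause was not tested. Depth limits Ch25h most, at about 9 reads in WT at 0 h.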

Other observations

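Some other genes that handle cholesterol moved with LPS in both genotypes, as did many genes of other kinds. At 12 h against 0 h, 27% of all measured genes passed the 2-fold rule in WT and 26.1% in the libraries labelled KO. Of the 11 measured genes of lysosomal cholesterol, its storage and its transport, 1 rose and 2 fell past that rule in WT. In the libraries labelled KO 1 rose and 3 fell. Gpr183, the receptor for oxysterols made downstream of Ch25h, fell in both genotypes, from 16.5 to 2.91 and 0.85 FPKM in WT and from 14.4 to 2.35 and 0.87 in the libraries labelled KO. Lipa, the lysosomal acid lipase that frees cholesterol from esters, fell by 1.78 at 12 h in each genotype. Nceh1, a cholesteryl ester hydrolase, fell at 12 h by 1.05 in WT and by 1.46 in the libraries labelled KO. Stard3, a lysosomal membrane protein that moves cholesterol, rose by 1.17 and 1.09 at 12 h. Soat1, which forms cholesteryl esters, stayed between 55.6 and 73.4 FPKM in all 6 libraries; it was named after its values were seen. Cd38, counted among the LXR targets, rose from 0.98 to 90.2 FPKM by 24 h in WT and from 0.78 to 70.7 in the libraries labelled KO. Arl4c, another target, fell by 1.91 and 1.90 at 12 h, so the list did not move in one direction with LPS. These values were compared with 0 h libraries that both LPS times share.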
